A study of Mus musculus with 21 samples.

Results

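Of the 2127 p53 peaks that were specific to Trp53 wild-type cells, 417 (19.6%) overlapped RLTR1B, a long terminal repeat (LTR) of a mouse class I endogenous retrovirus (ERV1). They were chosen by the deposited repeat annotation: a peak was kept where at least 1 of the repeats listed for it was named exactly RLTR1B. Peaks came from CUT&RUN, in which a nuclease tethered to an antibody cuts and releases the DNA beside the antibody target in permeabilised cells. The cells were ID8, an immortalized, untreated epithelial line from C57BL/6 mouse ovarian surface epithelium, grown asynchronously, with the genotype Trp53+/+ (WT) or Trp53-/- (KO). There were 2 samples of each genotype with the p53 antibody, and 1 list of intervals per genotype was deposited. Every value below therefore describes 1 list and has no replicate check. The making of the KO line (1 clone or several) was not stated by the submitters.

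An LTR is the repeated end of a retrovirus. Its 5′ part, called U3, carries the promoter and enhancer of the virus, followed by the R and U5 parts. When the pair of LTRs of 1 provirus recombine, the internal genes are lost and a solitary LTR stays behind. The transcription factor p53, which responds to DNA damage and other stress, binds as a tetramer to paired copies of a short half-site, and in primates such sites are known in the LTRs of several endogenous retrovirus families.

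No mm10 genome sequence was used here, so the letters of the 419 RLTR1B elements are not printed. The RefSeq promoter windows of GRCm38.p6, the assembly that mm10 represents, run from 250 bases before to 50 after a gene start. None of the 419 elements overlapped a window, and 1 of the 417 peaks reached into one. This is the peak annotated to the promoter of Ermard (chromosome 17, positions 15053451 to 15054900), whose element lies at 15053794 to 15054276 on the minus strand. The stretch that the window of the noncoding gene Gm35343 shares with the peak is 171 bases long (chr17:15053451-15053621, minus strand) and starts 173 bases past the 3′ end of the element. It is shown as the only sequence under these peaks that the windows hold.
Gm35343 window in the Ermard peak: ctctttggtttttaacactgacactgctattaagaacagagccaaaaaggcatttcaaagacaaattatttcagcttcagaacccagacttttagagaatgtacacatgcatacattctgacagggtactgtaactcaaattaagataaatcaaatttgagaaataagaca
The p53 half-site, searched on both strands, was found 0 times in it, exactly or with 1 mismatch outside the core CNNG, so no base is in capitals. Of 32851 promoter windows taken at the same length, 5.03% held an exact half-site and 33.3% held 1 with that mismatch. The stretch is outside the LTR and says nothing of the letters within it.

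The peaks on RLTR1B were almost free of overlap with the KO list, the background measured with the same antibody in cells without p53. Of the 417, 1 overlapped a KO peak by at least 1 bp (0.240%, 95% exact binomial interval 0.00607 to 1.33), whereas 3.34% of all 2127 WT-specific peaks did. The list was chosen by genotype, so this is a description with no test. The 1 peak, 637 bp long, lay in an intergenic site of chromosome 12 (115044956 to 115045592) and shared part of its element with a KO peak of 288 bp (115045093 to 115045380). With KO peaks up to 500 bp away counted as well, the number was still 1, and with 50% of the peak to be overlapped it was 0. Of peaks on MMERGLN_LTR, the LTR of another ERV1 element, 1 of 274 overlapped a KO peak, against 10 of 305 peaks on the remaining LTRs and 26 of 683 peaks with no repeat. All 417 intervals were identical to an interval of the WT list of 6811 peaks, and the KO list held 9784. No second WT peak lay in any of the 415 elements that were the only RLTR1B of their peak.

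Peaks on RLTR1B varied less in length than those on other LTRs. Their median was 472 bp (95% interval from order statistics 452 to 499), with quartiles of 397 and 618 bp and a range of 189 to 2019 bp. Peaks on MMERGLN_LTR were longer, with a median of 573.5 bp (540 to 603) and quartiles of 440.25 and 719.75 bp. The median for other LTRs, 490.0 bp (446 to 546), lay within the RLTR1B interval, but its quartiles of 364 and 799 bp were wider apart. Under 300 bp were 5.04% of its peaks (3.14 to 7.60), close to the 4.74% on MMERGLN_LTR (2.55 to 7.98), against 16.7% on other LTRs (12.7 to 21.4) and 40.4% without a repeat (36.7 to 44.2). Over 1000 bp were 11 peaks, 2.64% (1.32 to 4.67), against 7.30% on MMERGLN_LTR (4.52 to 11.0) and 7.33% of all WT-specific peaks. These intervals treat peaks as independent and cover counting error only, and the number of reads behind a peak is unknown.

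**Figure D1:**
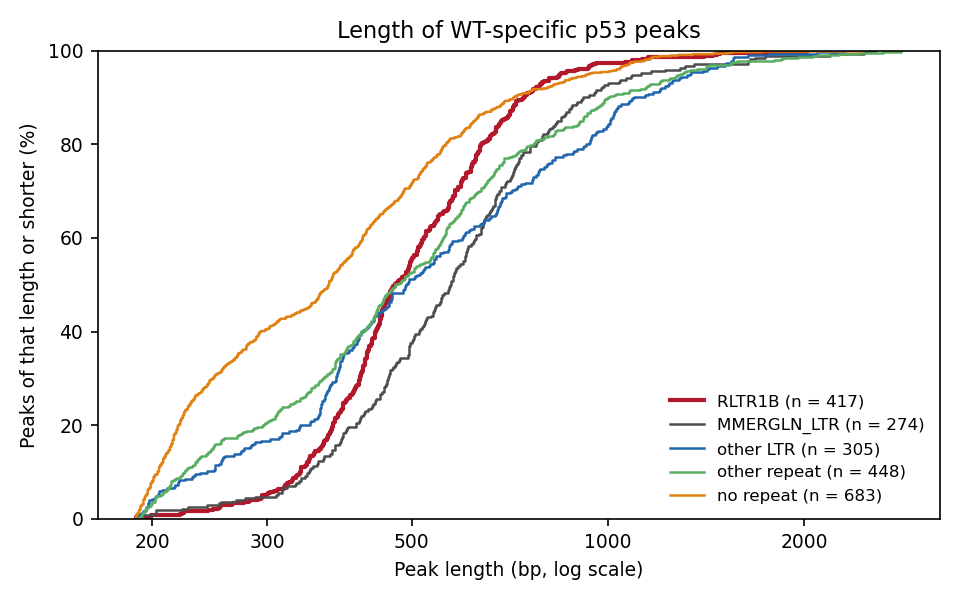
Cumulative share of WT-specific p53 peaks (y axis, %) by peak length (x axis, bp, log scale), 1 line per group of the repeat annotation. The RLTR1B line is steep between its quartiles of 397 and 618 bp and reaches few lengths under 300 bp.

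On the element, the peaks shared 1 place. Counted in bp along the strand of the LTR from its 5′ end, positions 18 to 97 lay under all 415 peaks with a single RLTR1B, and positions -45 to 251 lay under at least 95% of them. Of these peaks, 413 (99.5%, 98.3 to 99.9) extended upstream past the 5′ end of the element, by a median of 129 bp. In contrast 35 (8.43%, 5.94 to 11.5) extended past the 3′ end. The downstream edge had a median position of 337 bp, with quartiles of 310 and 395.5 bp, while the elements themselves had a median of 509 bp. The 3′ part of the LTR was thus seldom under a peak: position 200 was covered by 96.9% of peaks, position 300 by 81.7%, position 400 by 23.9% and position 500 by 6.27%. The midpoint of the peak, which is not a measured summit, had a median position of 101.5 bp (98.5 to 105) and fell in the first 200 bp in 399 of 415 peaks (96.1%).

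The edges moved with peak length. Among the shorter peaks (under the median length, n = 207) the edges had medians of 84 bp upstream and 311 bp downstream of the 5′ end. In the longer peaks (n = 208) the medians were 229.5 and 395 bp. Both edges therefore lay farther out in longer peaks, the upstream edge by more, and the median midpoint was 83.75 bp (77.5 to 89) against 110.0 bp (106.5 to 114.5) in the shorter ones. The midpoint was alike on both strands, with medians of 102 bp for 201 plus-strand and 101 bp for 214 minus-strand elements. The upstream edge reaches into flanking DNA outside the repeat at nearly every site.

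**Figure D2:**
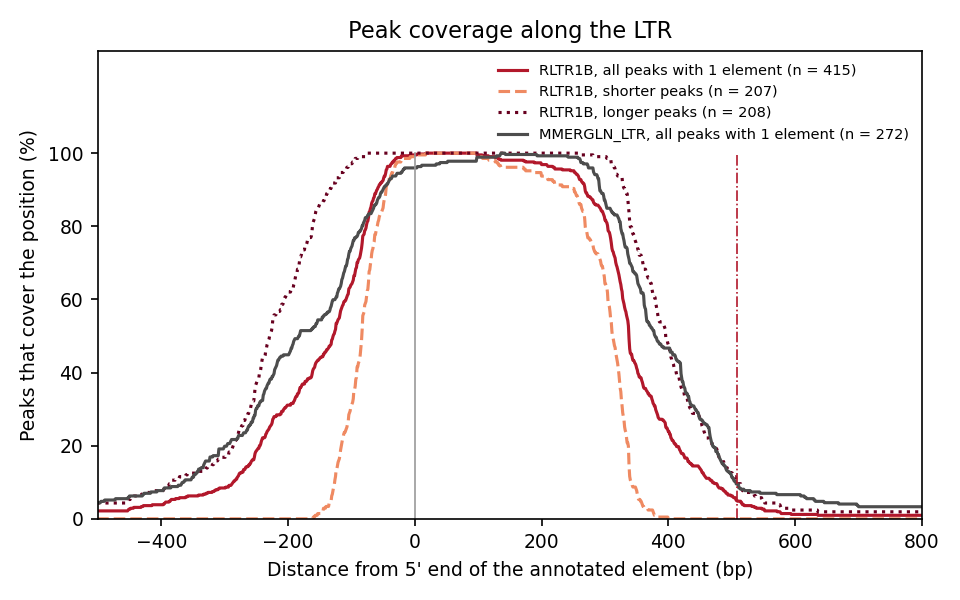
Share of peaks (y axis, %) that cover each position, against position in bp along the strand of the element (x axis). The grey line marks the 5′ end and the dash-dotted line the median RLTR1B length of 509 bp. Peaks on RLTR1B cover positions 18 to 97 without exception and seldom reach the 3′ end.

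In MMERGLN_LTR peaks, positions 136 to 142 lay under all 272 peaks with a single element. A stretch under every peak is set by the most extreme peaks. The median midpoint was 107.25 bp (100.5 to 114.5), an interval that overlaps the 98.5 to 105 bp of RLTR1B. MMERGLN_LTR peaks passed the 3′ end of their shorter element in 90 of 272 cases (33.1%, 27.5 to 39.0). The intervals for passing the 3′ end do not overlap between the 2 LTRs, but the elements differ in length (medians 509 and 430 bp), so the share depends on the element as well as on the peak.

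Element lengths were concentrated near 1 value. The most frequent length was 510 bp, in 53 of 419 elements, and 214 (51.1%) were 500 to 520 bp long. At least 400 bp long were 393 (93.8%), a share that did not differ detectably from the 93.5% of MMERGLN_LTR (Fisher's exact test across elements, odds ratio 1.05 with adjusted p = 0.875). The shares do not measure completeness alike, because 400 bp is near the median of MMERGLN_LTR (430 bp) but well under the 509 bp of RLTR1B. The plus strand held 205 and the minus strand 214, and the plus share of 48.9% (44.0 to 53.8) was also not distinguished from that of MMERGLN_LTR (45.3%, adjusted p = 0.431, Fisher's exact test). In 23 peaks the single element was under 400 bp, with a median of 305 bp. The midpoint there had a median position of 106.5 bp (69.5 to 121), close to that in the longer elements, and all 23 peaks passed the annotated 5′ end. The overlap between peak and element had a median of 337 bp. The shortest overlaps were 97 bp in a peak at the promoter of Ms4a5, a membrane protein gene of the MS4A family, 97 bp in an intergenic peak of chromosome 12 (40291643 to 40291831) and 106 bp in an intergenic peak of chromosome 10 (11465343 to 11465531). The 3 longest were 551 and 540 bp in intergenic peaks of chromosome 1 (43315835 to 43316782 and 141244302 to 141245391) and 547 bp under RP24-319M18.1 on chromosome 19 (3154976 to 3155916).

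Within the RLTR1 group of names, RLTR1B was listed far more often than its relatives. RLTR1F_Mm was in 36 WT-specific peaks, RLTR1 and RLTR1D2_MM in 8 each, RLTR1E_MM in 5, RLTR1A2_MM in 3 and RLTR1D in 1. None of these was in a peak together with RLTR1B. The number of copies of each in the genome was not analysed here, so these counts are not rates per copy. RLTR1B-int, the annotated internal sequence, was in 13 peaks, 6 of them on RLTR1B as well.

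Few of the peaks held a second kind of repeat. The annotation named another repeat in 15 of 417: RLTR1B-int in 6, the LTR RLTR23 in 2, and B2_Mm2, L1Md_F3, Lx2A1, Lx5b, MLT1E2, RCHARR1, RMER10A and MT2B in 1 each, MT2B in a peak that also held RLTR1B-int. Internal retroviral sequence of any kind was named in 1.44% of RLTR1B peaks (0.530 to 3.11) and 6.57% of MMERGLN_LTR peaks (3.94 to 10.2; Fisher's exact test, odds ratio 0.208 with adjusted p = 0.00126). MMERGLN_LTR peaks also passed the 3′ end of their element more often (33.1% against 8.43%). Whether this accounts for the difference was not tested. Of the 415 peaks with a single RLTR1B, 387 extended at least 50 bp beyond it, so flanking DNA was present in most. Whether the annotation lists every repeat in that DNA was not tested.

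The spacing of the peaks set RLTR1B apart from MMERGLN_LTR. A provirus with both LTRs would show 2 elements of the same strand several kb apart. A partner was counted only where it also lay under a WT-specific peak. The shares are therefore of paired peaks and not of elements in proviruses. Only 10 of 417 RLTR1B peaks (2.40%, 1.16 to 4.37) had a partner on the same strand 4 to 10 kb away, against 94 of 274 MMERGLN_LTR peaks (34.3%, 28.7 to 40.3; Fisher's exact test, odds ratio 0.0470 with adjusted p = 1.37e-30). The test treats peaks as independent although the members of a pair are not. Reads that fit both LTRs of 1 provirus can be placed on either, and whether this adds to the pairs was not tested. At 1 to 20 kb the counts were 32 and 98. Most of the 47 MMERGLN_LTR pairs at 4 to 10 kb had nearly the same spacing, with quartiles of 7978 and 7989.5 bp. The 47 included a pair on Y, a chromosome that cells from ovary are not expected to carry. The 5 RLTR1B pairs ranged from 4298 to 7965 bp. The lower limit of 4 kb fell among the RLTR1B spacings. Their median over the 16 pairs at 1 to 20 kb was 4361 bp, with a lower quartile of 3716.75 bp.

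The pairs closest within that window lay in an intergenic site of chromosome 17 (elements at 17504381 and 17508679, 4298 bp apart), under the transcript RP24-530O2.2 on chromosome 14 (13932217 and 13936641, 4424 bp) and in an intergenic site of chromosome 5 (64902487 and 64906973, 4486 bp). The other two were on chromosome 10, 5511 bp apart at 11465426 and 7965 bp apart at 53490008. Another 7 pairs were closer than 4 kb, with a median of 3683 bp and quartiles of 3486.5 and 3736.5 bp. They included, named after its values were seen, a pair 3395 bp apart in the 5′ UTR of the transcript RP24-319M18.1 on chromosome 19.

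**Figure D3:**
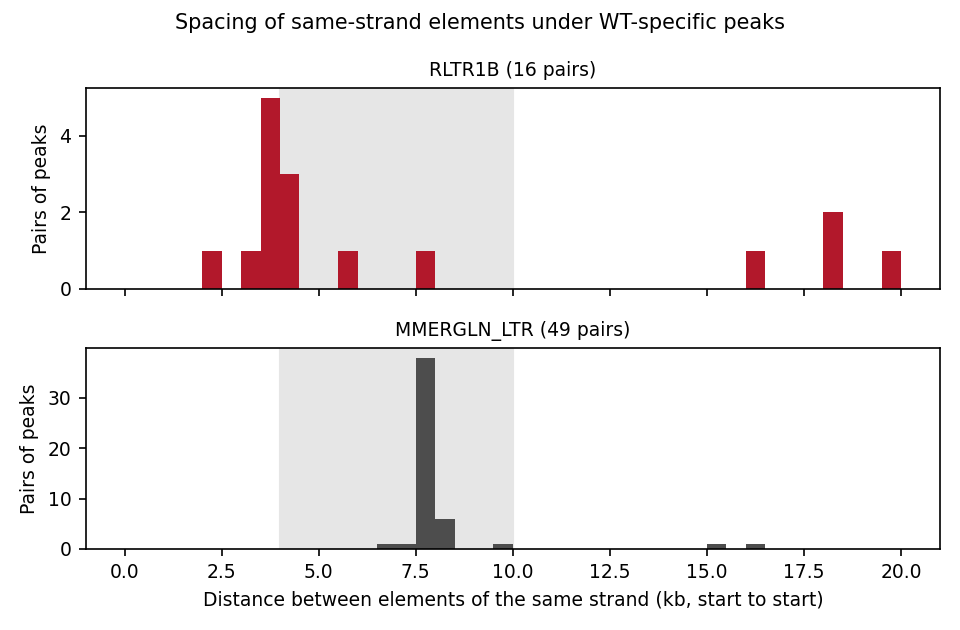
Number of pairs of peaks (y axes, different scales) by the distance in kb between their elements, start to start, for elements of the same name and strand 1 to 20 kb apart (x axis, bins of 0.5 kb); the grey band is 4 to 10 kb. MMERGLN_LTR has 49 pairs, most of them in the bins beside 8 kb. RLTR1B has 16, with a median spacing of 4361 bp and quartiles of 3716.75 and 10094.2 bp.

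Peaks on RLTR1B were otherwise scattered. No other RLTR1B peak lay within 100 kb of 352 of them. The other 65 (15.6%) formed 25 groups of 2 and 5 groups of 3. The 2 longest peaks, and the fifth longest, formed 1 of the groups of 3. They were 1756, 2019 and 1450 bp long and lay on chromosome 17 at 14990784 to 14992539, 15022073 to 15024091 and 15053451 to 15054900. Their elements, of 473, 473 and 483 bp, were all on the minus strand and were spaced 31368 and 31299 bp apart. Each lay inside a noncoding RNA gene of the minus strand, Gm3255, Gm52298 and Gm35343, whose lengths of 11782, 11783 and 12053 bp are much alike. All 3 peaks also held RLTR1B-int, so they account for 3 of the 6 peaks with both. The other groups of 3 lay on chromosome 3 (31450855 to 31491065), chromosome 19 (3149844 to 3155916) and, in 2 places, chromosome 5 (30033935 to 30091404 and 104588651 to 104699844). Reads from near-identical copies can be placed on the wrong copy, and the treatment of such reads by the authors was not stated.

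The other peaks among the 10 longest were intergenic except 1. The exception, of 1154 bp, was in an intron of Arhgap32 on chromosome 9. The intergenic ones were 1488 bp on chromosome 6, 1473 bp on chromosome 19, 1407 bp on chromosome 11, 1127 bp on chromosome 9, 1090 bp on chromosome 1 (also on the LINE Lx5b) and 1088 bp on chromosome 4. Midpoints of the intergenic ones ranged from -330.5 to 284.5 bp, the lowest and highest of all 415. The farthest upstream, on chromosome 11, also overlapped RLTR23.

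Most RLTR1B peaks lay away from genes. By the deposited annotation 296 (71.0%, 66.4 to 75.3) were intergenic, 97 (23.3%, 19.3 to 27.6) intronic, 10 in promoters, 7 in 5′ UTRs, 5 in 3′ UTRs and 2 in other exons. Peaks on other LTRs were less often intergenic, at 55.7% (49.97 to 61.4; Fisher's exact test, odds ratio 1.94 with adjusted p = 0.000159). They were more often in a promoter or 5′ UTR, with 34 of 305 (11.1%) against 17 of 417 on RLTR1B (4.08%; Fisher's exact test, odds ratio 0.339 with adjusted p = 0.00126). The intron shares of 23.3% and 30.2% did not pass the test (adjusted p = 0.0732, Fisher's exact test). RLTR1B and MMERGLN_LTR could not be told apart in the intergenic share (71.0% and 72.3%, adjusted p = 0.804), the intron share (23.3% and 19.7%, adjusted p = 0.414) or the promoter and 5′ UTR share (4.08% and 6.20%, adjusted p = 0.335, Fisher's exact test for each). Adjustment was over 11 comparisons of shares. The genomic placement of unbound copies was not analysed here.

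**Figure D4:**
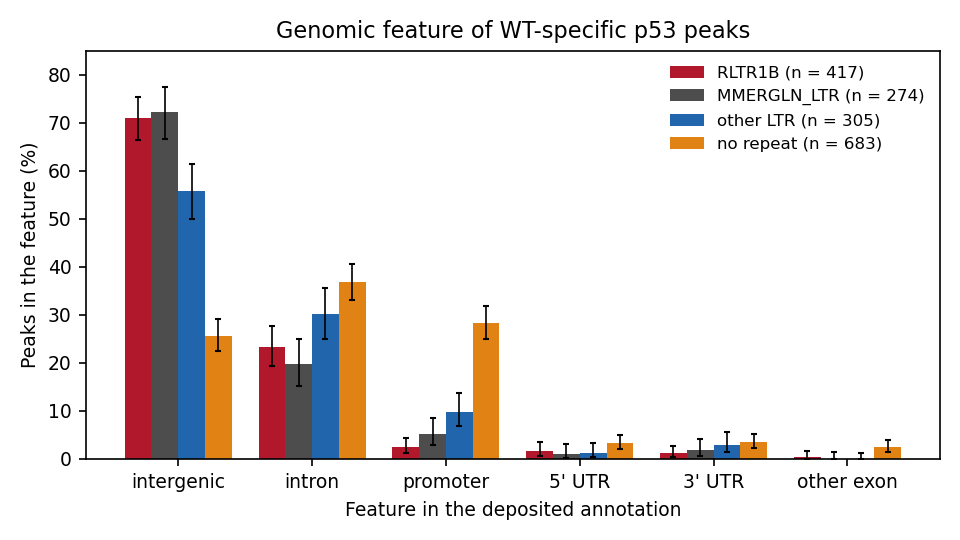
Share of WT-specific p53 peaks (y axis, %) in each feature of the deposited annotation (x axis) for 4 groups of peaks; bars are shares and error bars 95% exact binomial intervals. RLTR1B and MMERGLN_LTR peaks are about 71 to 72% intergenic, and peaks without a repeat 25.6%.

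Length and position differed little between features. Median peak lengths were 464 bp in 294 intergenic peaks (448 to 497) and 521 bp in 97 intronic ones (453 to 572), and median midpoints were 101.75 bp (98 to 105.5) and 101 bp (88.5 to 107.5). In the 10 promoter peaks the midpoint was 101 bp and in the 7 peaks of 5′ UTRs 103.5 bp.

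Among the 17 peaks in promoters and 5′ UTRs, 6 were assigned to protein-coding genes of RefSeq. Besides Ermard, an endoplasmic reticulum protein gene, they were Tmprss12, a serine protease gene of the testis, Plb1, a phospholipase gene, Ms4a5, Diaph3, a formin that nucleates actin filaments, and Eci2, an enoyl-CoA isomerase of fatty acid breakdown. The Tmprss12 peak of 723 bp (chromosome 15, 100279318 to 100280040) lay upstream of the gene, and its element (100279604 to 100280110) was on the strand of the gene and ended 727 bp before the RefSeq start. The Ms4a5 peak of 255 bp (chromosome 19, 11284946 to 11285200) was also upstream, with its element on the opposite strand. The other 4 lay inside the RefSeq gene span. The Plb1 peak of 426 bp (chromosome 5, 32246143 to 32246568) was 7271 bp from the nearest RefSeq start although annotated as promoter. The Diaph3 peak of 842 bp and the Eci2 peak of 464 bp were 15962 and 10881 bp from the nearest RefSeq start.

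The other promoter and 5′ UTR peaks were assigned to noncoding or unmatched transcripts, among them Gm23779, a small nuclear RNA gene, n-R5s5, a ribosomal RNA pseudogene, Gm22751 and Gm26025. The remaining names, not matched in RefSeq, were RP23-349P1.3, RP24-418J2.5, RP24-319M18.1 with a pair of peaks, RP24-496C8.2, AC091274.3 and RP23-181A8.2, and their peaks were 415 to 684 bp long. In 3′ UTRs and other exons were Ybey, an endoribonuclease gene (452 bp), Vmn1r16, a vomeronasal receptor gene (381 bp), Rcsd1, whose product binds the actin capping protein CapZ (549 bp), and Tdrd12, a gene of the germline piRNA pathway that silences retrotransposons (505 bp). AC113299.3 (388 bp) and the chromosome 17 transcripts RP23-464D14.5 and RP23-464D14.7 made up the 3′ UTR peaks. The Vmn1r16 peak lay 2589 bp outside the RefSeq gene span.

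The 97 intronic peaks lay in 95 genes by the annotation. For 53 of them the RefSeq promoter windows gave a single gene strand, and the element ran against the gene in 37 (69.8%, 55.7 to 81.7) and with it in 16. The other 44 had a gene name not matched in RefSeq or a gene without promoter windows of a single strand. In MMERGLN_LTR peaks 33 of 37 ran against the gene (89.2%, 74.6 to 97.0), and the difference between the LTRs missed the threshold of 0.05 (Fisher's exact test, odds ratio 0.280 with adjusted p = 0.0732). Both intervals lie above 50%. The 54 intronic MMERGLN_LTR peaks lay in 49 genes, and Abca13 and Immp2l, for example, each held both peaks of a pair. The intervals and the test take such peaks as independent. Of the genes with an intronic RLTR1B peak, and named here after their values were seen, Fgfr2, a fibroblast growth factor receptor, had an antisense element under a peak of 408 bp. Nhej1, a factor of DNA end joining, had 1 under 319 bp, and Fto, an RNA demethylase, 1 under 393 bp. Dusp10, a phosphatase of stress-activated kinases, had a sense element under 590 bp, and Foxn3, a forkhead factor, 1 under 337 bp. Farp2, a guanine nucleotide exchange factor gene, held a pair of peaks, 665 bp long on a sense and 794 bp on an antisense element. The zinc finger genes Zfp558, Zfp808 and Zfp873 held 1 each.

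Distances to gene starts were large on both RLTR1B and MMERGLN_LTR. The median distance from peak midpoint to the nearest RefSeq start was 29614 bp (24992.5 to 37230) in the 407 peaks on chromosomes with promoter windows, against 33460.5 bp (23627.5 to 46337.5) for MMERGLN_LTR, 14618.5 bp (11692.5 to 18131.5) for peaks without a repeat and 26029 bp (19914.5 to 34870) for other LTRs. Within 10 kb of a start were 83 (20.4%), and within 1 kb only 2, against 153 of 673 peaks without a repeat within 1 kb. Of the 83, 55 were upstream of the start, 23 of them with the element on the strand of the gene and 32 on the other. The 28 downstream were divided evenly, 14 and 14. Of 65 MMERGLN_LTR peaks within 10 kb of a start, 45 were upstream, 29 of them on the strand of the gene and 16 on the other. Not all of the 65 are separate loci. At Gm46754 and Gm46854, for example, both peaks of a pair were counted against the same start, which lay between them on their strand. The difference in orientation was not tested. Inside the span of a RefSeq gene were 124 RLTR1B peaks (29.7%), against 27.01% on MMERGLN_LTR and 50.9% of all WT-specific peaks, and more than 50 kb from any gene were 42 (10.1%), against 16.4% on MMERGLN_LTR and 9.07% of all.

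Of 121 genes on 7 lists drawn up from general knowledge, with earlier results of these data known, 7 had an RLTR1B peak within 50 kb. The background was 2.36% of all 49980 RefSeq genes and 2.63% of the 21900 protein-coding ones. None of 32 canonical p53 targets, genes of cell cycle arrest, feedback and cell death, had one. Some WT-specific peak lay within 50 kb of 25 of the 32, against 11.9% of all RefSeq genes and 14.5% of protein-coding ones. At the background rate for RLTR1B fewer than 1 of the 32 would have an RLTR1B peak, so the count of 0 is near the background and no lack can be read from it. Of 13 antigen presentation genes none had one either.

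Of 22 interferon response genes, 3 had an RLTR1B peak within 50 kb. They were Mx1 and Mx2, which are neighbours and are listed by RefSeq as transcribed pseudogenes in this strain, and Xaf1, an antagonist of the caspase inhibitor XIAP. The Mx1 peak of 453 bp was in an intron, with the element on the plus strand (chromosome 16, 97457671 to 97458166). The Mx2 peak of 891 bp (97523762 to 97524652) lay 11429 bp from the gene and the Xaf1 peak of 424 bp (chromosome 11, 72292051 to 72292474) 8987 bp from it. Midpoints were 65.5, 60.5 and 125 bp from the 5′ end. Of 18 genes of RNA and DNA sensing, Oas1a, an oligoadenylate synthetase gene, had an intergenic peak of 549 bp (chromosome 5, 120893101 to 120893649). It lay 2607 bp past the 3′ end of Oas1a, and the nearest RefSeq start was that of Oas1g.

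Of 12 chemokine and cytokine genes, Il6 had a pair of intergenic peaks of 699 and 517 bp, 13960 and 26067 bp past its 3′ end. Of 24 repeat silencing genes, Eed, a subunit of the Polycomb complex PRC2, had a peak of 636 bp 2983 bp past its 3′ end. Tasor, a subunit of the HUSH silencing complex, had 1 of 598 bp 35556 bp past its 3′ end. Within 5 kb the count over all lists was 3 (Mx1, Oas1a and Eed). Of RefSeq genes 0.488% had an RLTR1B peak that close, and of protein-coding ones 0.548%. The lists are short, the Mx1 and Mx2 peaks are not independent loci, and nearness does not show regulation. No expression values were used here.

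RLTR1B peaks were found on all autosomes and on X. On chromosomes 1 to 19 and X there were 15.8 per 100 Mb, from 5.86 on X to 27.7 on chromosome 19 (span up to the last RefSeq gene). Chromosome 19 was also the densest for WT-specific peaks of any kind, with 145.2 per 100 Mb. As a share of the WT-specific peaks of a chromosome, RLTR1B was highest on chromosome 5, with 39 of 119 (32.8%, 24.4 to 42.0). This is the only chromosome among 1 to 19 and X whose interval lay wholly above the 19.6% of the full list, and with 21 chromosomes compared such an interval can arise without a difference. On Y there was none among 25 WT-specific peaks (upper limit 13.7%), while 2 of the 25 lay on MMERGLN_LTR. The cells came from ovary, where no Y chromosome is expected, so these 25 intervals may not be places in their genome. How reads came to be placed on Y was not tested.

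**Figure D5:**
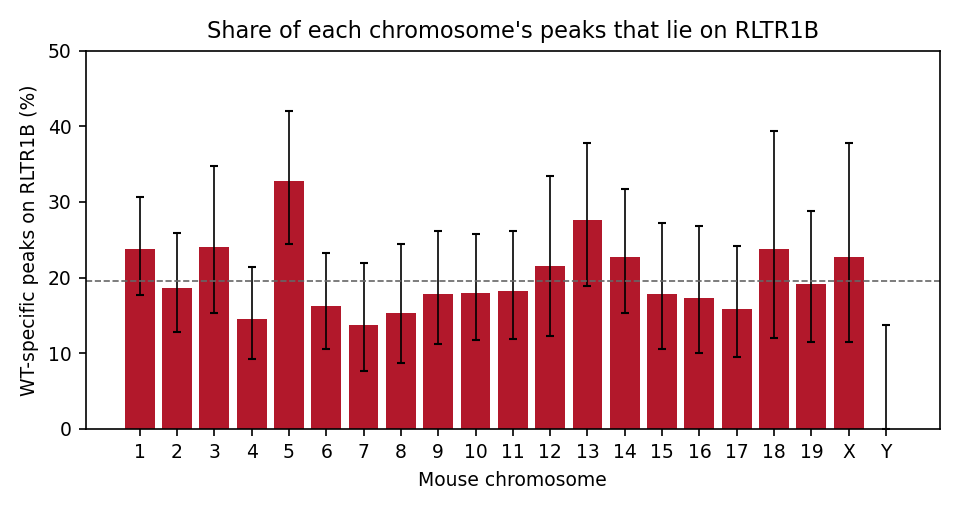
Share of the WT-specific p53 peaks of each mouse chromosome that lay on RLTR1B (y axis, %; error bars, 95% exact binomial intervals). The dashed line is the share in the full list, 19.6%; chromosome 5 is highest at 32.8% and Y has none.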

How the data were processed

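Peak intervals are the authors' values, deposited as positions in bp on mm10 with no score, fold or p-value per the file headers, so the unit "other" is a position. Tools listed in the submitters' processing notes are Bowtie2, deepTools, fastp and MACS2 (versions, settings and the rule for WT-specific peaks: not given in the sources used here). The labels name 1 list for the 2 samples of a genotype, and whether reads were pooled is not stated. Depth is unknown. Histone and IgG samples were not analysed here.

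Start positions were read as 0-based and are printed 1-based. Feature and repeat tables were joined on chromosome, start and end. Shares carry 95% Clopper-Pearson intervals and medians 95% order-statistic intervals. Shares of 2 disjoint groups of peaks were compared by two-sided Fisher's exact tests with Benjamini-Hochberg adjustment over 11 comparisons. Peaks are not replicates, so these tests describe the lists. Gene positions, strands and promoter windows came from RefSeq GRCm38.p6. Chromosome 18 has no promoter window in the table. Of 117 gene names in the annotation of these peaks, 83 matched RefSeq. Position, pairing and interval code was tested on simulated data. Computations used Python 3.11.15, numpy 2.4.6, pandas 2.3.3 and scipy 1.17.1.

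The members and lists were chosen with earlier results of these data known. Named peaks were the 10 longest, those in promoters, exons and UTRs, those within 50 kb of a listed gene, those at KO peaks, up to 5 of the closest pairs, and the 3 shortest and 3 longest overlaps. Alternatives covered the overlap, element length, spacing, gene distance and strand rules. The orientation of intronic elements, the distances to gene starts, the groups within 100 kb and the further intronic genes were added after the data were seen.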

Additional observations from a re-analysis of the deposited data

How the results depend on the processing

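Of 30 alternatives over 16 results, 25 left the result as reported. For tested shares this means the same direction and side of the threshold. For counts it means a value close to the main one, and for medians a value inside the main interval. Among the 25 were all 4 for the number of RLTR1B peaks (398 to 424, against 417) and both for the pairing (odds ratios 0.149 and 0.0567, against 0.0470). They also included all 4 for the shares against other LTRs that had passed the test (adjusted p from 0.00761 to 0.031, Fisher's exact test). With 50% of the peak to be overlapped, 0 and not 1 RLTR1B peak overlapped a KO peak. Among peaks above the median length, the median midpoint was 83.75 bp from the 5′ end, against 101.5 bp. Within 5 kb and not 50 kb of a gene, 3 and not 7 listed genes had an RLTR1B peak. With protein-coding genes only, the count at 50 kb was 5 and not 7, because Mx1 and Mx2 dropped out. That setting is among the 25 taken as unchanged. In 2 comparisons with MMERGLN_LTR the direction turned without passing the test in either setting: the intergenic share among peaks above the median length of each group (odds ratio 1.21, adjusted p = 0.592, against 0.939) and the share of elements of at least 300 and not 400 bp (odds ratio 0.248, adjusted p = 0.0877, against 1.05; Fisher's exact test). The cause was not tested. The use of current gene symbols alone for gene strands was chosen after seeing the data (Fisher's exact test, odds ratio 0.308 with adjusted p = 0.119). No paired analysis was possible because 1 list per genotype was deposited for 2 samples each, and for the same reason no replicate could be left out. With reads per peak unknown, a missing peak is not an unbound element.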
